A study of Mus musculus with 13 samples.

Results

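Synaptic genes were followed through 13 arrays of striatum from mice that carried 0, 1 or 2 knockout alleles of Ptpn5. The synaptic set comprised neurotransmitter receptor subunits, postsynaptic scaffolds and the proteins of vesicle priming, fusion and recycling. Members were the probe sets in the authors' table of selected genes whose single symbol belonged to the glutamate receptor (Gri, Grm), GABA receptor (Gabr), scaffold (Dlg, Dlgap, Shank), synaptotagmin, synapsin, synaptogyrin, syntaxin, syntaxin-binding protein, Vamp, Snap, Unc13, Rims, Cplx, Sv2, Nsf or adaptor complex families. Grin2b, Grm8, Dlgap4, Gabra3 and Gabrg1 were left out by the rule. This gave 73 probe sets of 50 genes among 4423 listed probe sets, against 45101 on the whole array. No metabotropic glutamate receptor remained among the members.

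Ptpn5 encodes STEP, a tyrosine phosphatase enriched in the striatum. The arrays came from wild-type mice (4 arrays), mice heterozygous for the STEP knockout (5 arrays) and homozygous STEP knockouts (4 arrays). All mice were naive males on the C57Bl/6J background, and the wild types were littermates. The labels give neither the age of the mice nor how the knockout allele was made, and do not say whether an array pooled animals, so the p-values measure the spread between these arrays.

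At a chemical synapse, calcium entry triggers fusion of vesicles that have been docked and primed at the active zone, and transmitter then reaches receptors held in place by postsynaptic scaffold proteins. Vesicle membrane is afterwards retrieved with the help of adaptor complexes. The striatum receives glutamatergic input from cortex and thalamus, whereas its own projection neurons release GABA. STEP is known to dephosphorylate glutamate receptor subunits and MAP kinases, and thereby opposes synaptic strengthening.

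The authors' table of selected genes needed a correction before any direction could be read. Its 4 columns headed as homozygous held the values of the 4 arrays labelled wild type, and its 4 columns headed as wild type held those of the arrays labelled homozygous, with 100% of the listed probe sets equal within 0.51 intensity units in each pair. Groups were therefore taken from the labels of the individual arrays. On that basis Ptpn5 checked the labels: its probe set 1425130_a_at read 1649 ± 217 in wild-type, 1028 ± 231 in heterozygous and 486 ± 105 in homozygous arrays (mean ± SD of the linear intensity, n = 4, 5 and 4). The homozygous and wild-type values did not overlap (exact two-sided permutation test, p = 0.0286, the smallest possible with 4 against 4 arrays, and 0.0286 after Benjamini-Hochberg adjustment over the 3 pairs of groups). Every direction below follows the array labels and is the reverse of what the headings of the selected table would give for homozygous against wild type. In the authors' deposited table, all 1027 homozygous and all 3874 heterozygous fold changes lay within 0.05 log2 units of the differences from wild type by array label, taken for this check as differences of mean log2 intensity with no offset.

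The deposited intensities did not share a common level across arrays. The median of all probe sets ran from 143 on homozygous array 1 to 201 on homozygous array 2, and on the log2 scale the median probe set was 0.09 higher in homozygous and 0.12 higher in heterozygous than in wild-type arrays. Each synaptic difference is therefore to be read against that shift. Differences after quantile normalization, which gives all arrays 1 distribution, stand beside many of those on the values as deposited. A difference given without a normalized value still holds the shift. The members' median heterozygous minus wild-type difference was 0.36 as deposited and 0.19 after quantile normalization. Differences are of log2(intensity + 16), which understates the change of dim probe sets, and are given ± SE. Detection calls were not used, so whether the dimmest members lay above background was not measured.

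Most synaptic members had their highest mean in the heterozygous arrays, and none passed the test across the whole array. The median member was 0.36 log2 units higher in heterozygous than in wild-type arrays and 0.18 higher in homozygous than in wild-type arrays, and it was 0.18 lower in homozygous than in heterozygous arrays. Quantile normalization reduced these medians to 0.19, 0.08 and −0.11. The heterozygous mean was the highest of the 3 groups for 64 of 73 members (87.7%), against 82.8% of the 4350 other listed probe sets and 57.7% of the whole array. After quantile normalization it was highest for 61 members (83.6%), against 76.9% of the other listed probe sets and 32.7% of the whole array.

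No member reached an adjusted p under 0.05 in limma, with Benjamini-Hochberg adjustment over all 45101 probe sets. On the whole array 4 probe sets (0.00887%) were called between homozygous and wild type, 1 (0.00222%) between heterozygous and wild type and 3 (0.00665%) between homozygous and heterozygous. The lowest adjusted p of any member was 0.909 for homozygous against wild type, 0.287 for heterozygous against wild type and 0.621 for homozygous against heterozygous. Quantile normalization left the lowest at 0.998, 0.658 and 0.964. The values below are therefore descriptions of these arrays, and no member is called changed.

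Counts at an unadjusted limma p under 0.05 describe the same arrays, and the authors chose the listed probe sets by raw p and fold change in these mice. For heterozygous against wild type 64 members were higher and 0 lower, where 10.8% of the array was higher and 0.153% lower, and 83.7% of the other listed probe sets were higher. For homozygous against wild type 18 members were higher and 2 lower (array 2.81% and 0.208%, other listed 20.7% and 1.31%). For homozygous against heterozygous 3 members were higher and 18 lower (array 0.614% and 2.05%, other listed 1.84% and 14.3%). The members' shares lay close to those of the other listed probe sets in the comparisons with wild type. In the authors' deposited table, members numbering 64 were listed through the heterozygous comparison, all with a positive fold change, and 17 through the homozygous comparison, 15 of them positive, with 8 listed in both.

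The counts depended on the scaling and on single arrays. After quantile normalization 25 members were higher in heterozygous than in wild-type arrays and 0 lower (array 3.84% and 3.7%, other listed 31.7% higher). In homozygous against wild-type arrays 8 were higher and 1 lower (array 2.44% and 2.16%, other listed 16.4% and 1.52%). In homozygous against heterozygous arrays 4 were higher and 12 lower (array 2.46% and 2.69%, other listed 4.37% and 12.8%). Compared with the other listed probe sets, the members' share was smaller for the 8 and larger for the 12. The 18 members higher in homozygous arrays became 10 without wild-type array 1, 8 without wild-type array 2 or 4, 5 without homozygous array 2 and 6 without homozygous array 4. The 18 members lower in homozygous than in heterozygous arrays became 11 without heterozygous array 5, 10 without homozygous array 3 and 32 without heterozygous array 4. Without heterozygous array 4, 10 members and 213 probe sets of the array passed the adjusted test against wild type. With array weights, which ran up to 12.05 for homozygous array 3, 11 members passed the adjusted limma test between homozygous and wild type and 32 between homozygous and heterozygous, where 8390 and 5698 probe sets of the array did so. The 3 comparisons share arrays, so their counts are not independent of each other.

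**Figure D1:**
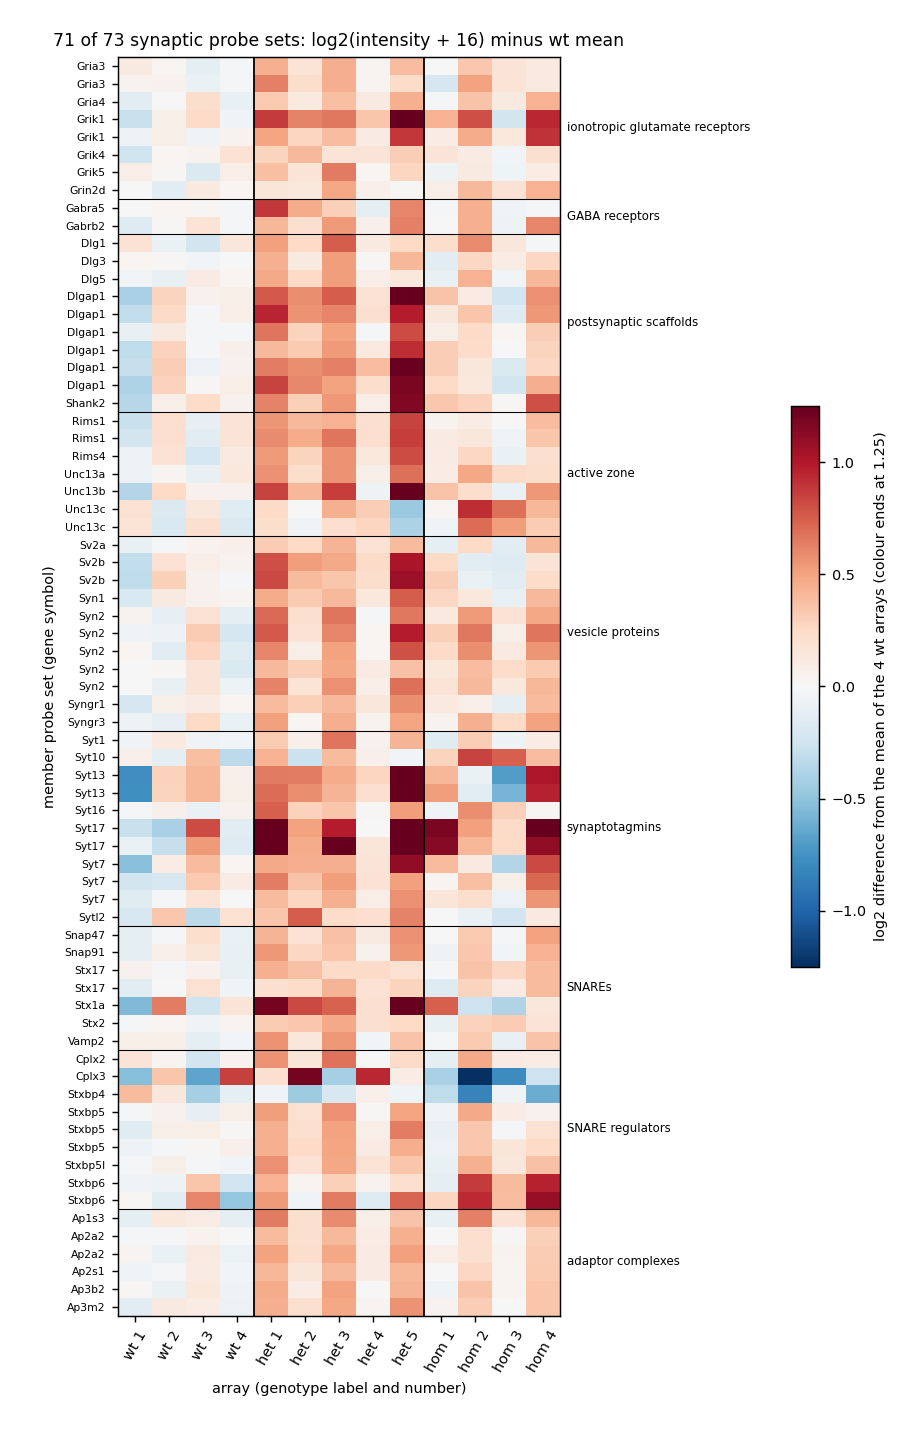
Each row is 1 of 71 of the 73 synaptic probe sets, ordered by role, and each column 1 of the 13 arrays; colour gives log2(intensity + 16) minus the mean of the 4 wild-type arrays. Heterozygous arrays 1, 3 and 5 are the warmest columns, and Cplx3 and Stxbp4 are the rows with low values in the homozygous arrays.

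The median intensity of the 73 members was 658, 852, 858 and 769 in wild-type arrays, 1171, 994, 1163, 822 and 1265 in heterozygous arrays and 881, 839, 738 and 1024 in homozygous arrays. Heterozygous arrays 1, 2, 3 and 5 were above every wild-type array, and heterozygous array 4 fell inside the wild-type range.

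In bulk tissue, fewer cells of a type and less RNA per cell cannot be told apart. Most listed markers of cortical excitatory neurons were, like most synaptic members, highest in the heterozygous arrays. Of 18 such marker genes 10 were listed, with 17 probe sets and none at 0 on any array. Their summed intensity ran from 8936 to 18188 in wild-type, 16431 to 35008 in heterozygous and 11129 to 17302 in homozygous arrays. All 17 marker probe sets were higher in heterozygous than in wild-type arrays, by a median of 0.73 log2 units (0.59 after quantile normalization). So were 98.1% of the other listed probe sets and 81.5% of the array (96.7% and 47.8% after quantile normalization). The authors selected the listed rows on these same arrays, so that count was largely set by the selection, and unlisted markers were not analysed. For homozygous minus heterozygous arrays the median of the markers was −0.78. The exceptions in this comparison were 3 of 17, Rasgrf2 and both probe sets of Tshz2, which were highest in the homozygous arrays. Stx1a and this sum were both highest on heterozygous array 5. The part of these markers in the synaptic values was not tested. None of the 18 markers of medium spiny neurons, the main cells of the striatum, were among the listed genes, so the tissue label was not checked against them. None of the oligodendrocyte, choroid plexus or cerebellar granule cell markers were listed either. The astrocyte markers Gfap and Aldoc (2 of 8 listed) summed to 1083 to 1297 in wild-type, 1237 to 1449 in heterozygous and 835 to 1543 in homozygous arrays. Tagln of vessel walls (1 of 8 listed) ran from 156 to 253 in wild-type, 202 to 305 in heterozygous and 310 to 635 in homozygous arrays, so that its homozygous range lay above the others. Itgam of microglia (1 of 8) ran from 93.0 to 126 in wild-type, 120.1 to 157 in heterozygous and 139.7 to 169 in homozygous arrays. Baiap3 and Trpc4 of thalamus and septum (2 of 7) summed to 289 to 484, 273 to 629.8 and 379.6 to 719.6 in the same order. Alas2 of red blood cells (1 of 3) ran from 87.4 to 782, 113 to 229.6 and 87.8 to 135. The part of these markers in the synaptic values was likewise not tested.

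**Figure D2:**
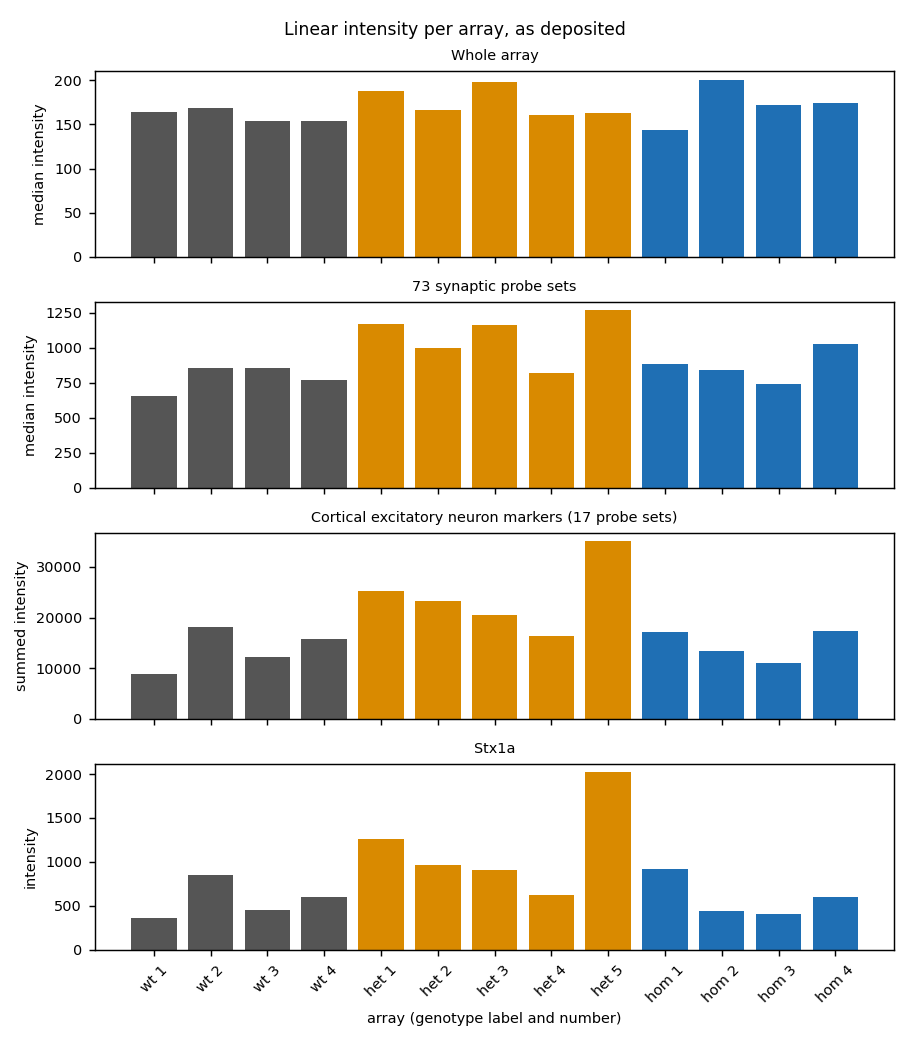
Bars from 0 give, for each of the 13 arrays, the median intensity of the whole array, the median of the 73 synaptic probe sets, the summed intensity of 17 cortical marker probe sets and the intensity of Stx1a. Among the cortical marker genes, Mef2c has the most probe sets in that sum. Heterozygous array 5 is highest in the last 3 panels (1265, 35008 and 2018), while its whole-array median of 162 is within the wild-type range.

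Ionotropic glutamate receptor subunits were represented by 8 probe sets of 6 genes, with a median of 0.30 for heterozygous minus wild type and 0.19 for homozygous minus wild type (0.11 and 0.07 after quantile normalization). Grik1, a kainate receptor subunit, had the largest differences from wild type among them. Its brighter probe set 1439987_at read 242, 269.8, 248 and 265 in wild-type arrays, 367, 312, 339.8, 275 and 488 in heterozygous arrays and 274, 360.2, 283 and 494 in homozygous arrays. Every mutant array lay above every wild-type array. This was the single member whose homozygous and wild-type ranges stood apart. It made 1.37% of the 73 members, against 8.46% of the other listed probe sets and 1.3% of the array wholly higher. Of the members 0 lay wholly below (other listed 0.368%, array 0.0732%). The difference from wild type was 0.43 ± 0.16 in heterozygous and 0.40 ± 0.17 in homozygous arrays (limma adjusted p = 0.393 and 0.909), or 0.27 and 0.29 after quantile normalization. Leaving out 1 array at a time moved the homozygous difference between 0.23 and 0.50, the lowest without homozygous array 4. The dimmer Grik1 probe set 1427676_a_at ran from 55.4 to 86.3 in wild-type, 93.5 to 195 in heterozygous and 57.9 to 150.5 in homozygous arrays.

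Grin2d, an NMDA receptor subunit, read 294, 266, 320.4 and 299.5 in wild-type, 329, 324, 418, 308 and 297 in heterozygous and 313, 396, 335 and 403 in homozygous arrays. The homozygous arrays were 0.27 ± 0.13 above wild type, 0.17 after quantile normalization, and the ranges overlapped. Grik5, a kainate subunit that assembles with others of its family, was 0.30 ± 0.12 higher in heterozygous than in wild-type arrays and −0.27 ± 0.12 in homozygous minus heterozygous arrays (0.10 and −0.20 after quantile normalization). Gria3 (2 probe sets) and Gria4, which encode AMPA receptor subunits, and the kainate subunit Grik4 were 0.31 ± 0.13, 0.28 ± 0.12 and 0.26 ± 0.12 higher in heterozygous arrays, and after quantile normalization these differences were 0.12, 0.08 and 0.16.

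GABA-A receptors, the fast inhibitory channels, were represented by Gabra5 and Gabrb2. Gabra5 read 537, 549.9, 545 and 529 in wild-type, 1009, 749, 669.7, 494 and 830.4 in heterozygous and 529, 743, 524 and 534 in homozygous arrays. The 4 wild-type values were tightly grouped, 4 of 5 heterozygous arrays exceeded all of them, and homozygous array 2 stood alone in its group. Heterozygous arrays were 0.42 ± 0.15 above wild type (0.24 after quantile normalization), and homozygous minus heterozygous gave −0.33 ± 0.15. Gabrb2 was 0.37 ± 0.14 higher in heterozygous than in wild-type arrays (0.18 after quantile normalization), with overlapping ranges.

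Counted by probe set, postsynaptic scaffolds had the largest heterozygous median of the 9 role classes. Their 10 probe sets of 5 genes had a median of 0.50 for heterozygous minus wild type (0.37 after quantile normalization), and all 10 had an unadjusted p under 0.05, 6 of them after quantile normalization. All 10 were listed through that comparison. At that p 83.7% of the other listed probe sets and 10.8% of the array were higher (31.7% and 3.84% after quantile normalization). Dlgap1, which links the PSD-95 family to Shank proteins, accounted for 6 of the 10 scaffold probe sets. Its brightest, 1436076_at, read 1307, 1913, 1602 and 1709 in wild-type, 3139, 2399, 2478, 1863 and 3208 in heterozygous and 1785, 2056, 1446 and 2361 in homozygous arrays. Heterozygous array 4 fell inside the wild-type range and the other 4 lay above it, while 2 of the homozygous arrays lay above it. The 6 Dlgap1 probe sets were 0.45 to 0.73 higher in heterozygous than in wild-type arrays (0.29 to 0.56 after quantile normalization), and 0.13 to 0.22 higher in homozygous than in wild-type arrays. For 1443508_at every heterozygous array, at 216 to 402, exceeded every wild-type array, at 129 to 204, and every homozygous array, at 141 to 204. Probe sets of 1 gene share its transcripts and are not replicates. By the brightest probe set of each gene, the middle scaffold gene was Dlg1 (0.38 for heterozygous minus wild type). The middle active-zone gene was Rims4 (0.46), so the scaffolds did not rank first when counted by gene.

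Shank2, a master scaffold beneath glutamate receptors, read 216, 295, 331 and 292 in wild-type, 439.7, 349, 416, 298 and 644 in heterozygous and 359, 347, 283 and 501 in homozygous arrays. It was 0.54 ± 0.18 higher in heterozygous arrays (0.38 after quantile normalization), and all group ranges overlapped. Dlg1 and Dlg3, membrane-associated guanylate kinases that anchor glutamate receptors, were 0.38 ± 0.14 and 0.30 ± 0.12 higher in heterozygous than in wild-type arrays, and the related Dlg5 was 0.29 ± 0.13 higher. These differences were 0.31, 0.11 and 0.12 after quantile normalization. Dlg1 was dim, at 42.0 to 61.0 in wild-type arrays.

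Active-zone members behaved in different ways among themselves. Rims1, a scaffold that gathers primed vesicles and calcium channels, was highest in the heterozygous arrays, whereas Unc13c, a member of the Munc13 family of priming factors, was highest in the homozygous arrays. The brighter Rims1 probe set 1435667_at read 1329, 1870.5, 1502 and 1806 in wild-type, 2372, 2145, 2177, 1851 and 2916 in heterozygous and 1662, 1718, 1619.6 and 2109 in homozygous arrays. Heterozygous arrays were 0.49 ± 0.13 above wild type (0.29 after quantile normalization) and homozygous minus heterozygous gave −0.36 ± 0.13. Rims4 had the same order of group means, with 0.46 ± 0.14 for heterozygous minus wild type and −0.34 ± 0.14 for homozygous minus heterozygous (0.30 and −0.28 after quantile normalization).

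The brighter Unc13c probe set 1455304_at read 3178, 2474, 3228 and 2481 in wild-type, 3278, 2727, 3264, 3407 and 2141 in heterozygous and 2716, 4567, 4066 and 3512 in homozygous arrays. Homozygous arrays 2, 3 and 4 were above every wild-type and heterozygous array, and homozygous array 1 lay within both ranges. The homozygous difference from wild type was 0.37 ± 0.16 (0.27 after quantile normalization; limma adjusted p = 0.909) and homozygous minus heterozygous gave 0.32 ± 0.15 (0.40). Leaving out 1 array at a time moved the latter between 0.21 and 0.46. The other probe set, 1437319_at, gave 0.51 ± 0.18 and 0.40 ± 0.17. Its relatives Unc13a and Unc13b were instead highest in heterozygous arrays, 0.42 ± 0.13 and 0.69 ± 0.20 above wild type (0.23 and 0.53 after quantile normalization). The difference between the family members was not tested.

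Vesicle proteins comprised 11 probe sets of 6 genes. At an unadjusted p under 0.05 all 11 were higher in heterozygous than in wild-type arrays (4 after quantile normalization), and 6 also in homozygous arrays (3 after quantile normalization). All 11 were listed through the heterozygous comparison, so the first count was largely set by the selection. As deposited, 83.7% of the other listed probe sets and 10.8% of the array were higher in heterozygous arrays, and 20.7% and 2.81% in homozygous arrays. After quantile normalization these shares were 31.7%, 3.84%, 16.4% and 2.44%. Of the 6 higher in homozygous arrays, 5 were probe sets of Syn2, which encodes synapsin II, a phosphoprotein that tethers vesicles in the reserve pool. The other was Syngr3. The brightest Syn2 probe set, 1428460_at, read 2731, 2466, 3001 and 2447 in wild-type, 4335, 3049, 4229.8, 2611 and 4208 in heterozygous and 2888, 3842, 3002 and 3711 in homozygous arrays. Heterozygous arrays 1, 3 and 5 lay well above the wild-type range, array 2 just above it and array 4 inside it. The differences from wild type were 0.44 ± 0.14 in heterozygous and 0.33 ± 0.15 in homozygous arrays (limma adjusted p = 0.321 and 0.909), or 0.27 and 0.23 after quantile normalization. Over the 5 Syn2 probe sets the differences were 0.33 to 0.51 in heterozygous and 0.27 to 0.42 in homozygous arrays. Syngr3, a synaptogyrin of the vesicle membrane, was 0.31 ± 0.13 and 0.31 ± 0.14 above wild type in heterozygous and homozygous arrays (0.11 and 0.19 after quantile normalization).

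Sv2b, a vesicle glycoprotein of the SV2 family, was the member with the lowest p between the mutant genotypes. Its brighter probe set 1434800_at read 1996, 2808, 2612 and 2549 in wild-type, 4328, 3552, 3439, 2927 and 5048 in heterozygous and 2936, 2244, 2214 and 2761 in homozygous arrays. All 5 heterozygous arrays exceeded all wild-type arrays, and 4 of 5 exceeded all homozygous arrays. Heterozygous arrays were 0.61 ± 0.14 above wild type (0.43 after quantile normalization; limma adjusted p = 0.287), and homozygous minus heterozygous gave −0.59 ± 0.14 (−0.52; adjusted p = 0.621). Sv2a, its more widespread relative, Syn1 (synapsin I) and Syngr1 were 0.31 ± 0.11, 0.42 ± 0.12 and 0.36 ± 0.11 above wild type in heterozygous arrays, each with deposited ranges that did not overlap. After quantile normalization these differences were 0.13, 0.25 and 0.19.

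The promoter windows of the synapsins are shown because Syn2 had the most probe sets above wild type at an unadjusted p under 0.05 in both mutant genotypes and Syn1 is its closest relative among the members. The sequences are RefSeq's, on GRCm38.p6, from 250 bases before to 50 after the start site. Capitals mark matches to an EGR-type motif in Syn2 and to the cyclic AMP response element in Syn1, motifs bound by activity-regulated transcription factors.
Syn2, chr6:115134652-115134951, plus strand: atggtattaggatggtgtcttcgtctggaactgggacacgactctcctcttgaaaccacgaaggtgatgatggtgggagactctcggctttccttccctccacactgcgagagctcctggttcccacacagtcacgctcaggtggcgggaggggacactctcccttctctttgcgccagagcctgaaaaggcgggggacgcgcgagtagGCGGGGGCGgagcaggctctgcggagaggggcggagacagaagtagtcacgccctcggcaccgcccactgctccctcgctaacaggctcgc
Syn1, chrX:20920869-20921168, minus strand: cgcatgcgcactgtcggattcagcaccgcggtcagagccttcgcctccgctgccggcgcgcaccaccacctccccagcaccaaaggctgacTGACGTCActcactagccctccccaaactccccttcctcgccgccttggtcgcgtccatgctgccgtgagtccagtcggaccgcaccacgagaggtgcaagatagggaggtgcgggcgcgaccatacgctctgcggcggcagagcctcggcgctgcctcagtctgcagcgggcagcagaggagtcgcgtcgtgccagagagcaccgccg
The EGR-type motif was searched as GCGGGGGCG or GCGTGGGCG on both strands. It was found in 6 of 50 windows of the 37 member genes that had a window (12%), against 3.47% of all 32851 windows. Those genes were Syn2 (41 to 33 bases before the start site), Stxbp5, Stxbp5l, Syngr1, Syt16 and Unc13a. In 5 of them, all but Syt16, the match overlapped the GC-box letters GGGCGG. The response element TGACGTCA, searched likewise, was found in Syn1 alone, 159 to 152 bases before the start site (2% of member windows against 1.79% of all). These are matches of letters, and binding was not measured. Windows of the other listed genes, or of genes with a like base composition, were not counted apart, so no enrichment of the motif in the synaptic set is claimed.

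**Figure D3:**
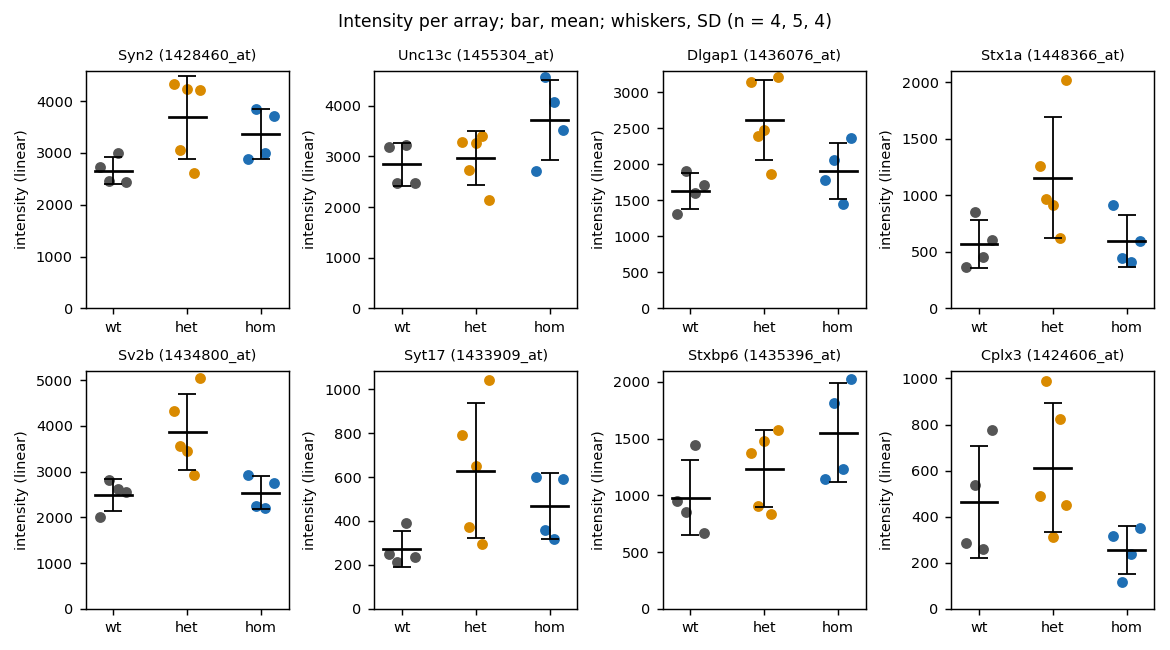
Points give the linear intensity of each array for 8 synaptic genes, in wild-type, heterozygous and homozygous arrays (n = 4, 5 and 4), with the mean as a bar and the SD as whiskers. Dlgap1, Stx1a and Sv2b have their highest mean in the heterozygous arrays, Unc13c and Stxbp6 in the homozygous arrays, and Cplx3 has its lowest in the homozygous arrays.

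Synaptotagmins and synaptotagmin-like proteins, many of which sense calcium at the vesicle, comprised 11 probe sets of 7 genes with a median of 0.44 for heterozygous minus wild type (0.25 after quantile normalization). Syt17, an atypical member of the family, had the largest heterozygous difference of all members. Its brighter probe set 1433909_at read 249, 214, 392 and 235 in wild-type, 791, 371, 649, 296 and 1041 in heterozygous and 601, 358, 318 and 591 in homozygous arrays. Wild-type array 3 alone overlapped the mutant arrays. Heterozygous arrays were 1.06 ± 0.27 and homozygous arrays 0.73 ± 0.28 above wild type (limma adjusted p = 0.287 and 0.909), or 0.90 and 0.63 after quantile normalization. The dimmer Syt17 probe set 1422955_at gave 1.03 ± 0.31 and 0.81 ± 0.33.

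Syt10, known in the mouse olfactory bulb as a calcium sensor for secretion of a growth factor, was dim and had its highest mean in the homozygous arrays. It read 46.6, 39.7, 61.9 and 31.8 in wild-type, 64.9, 33.8, 63.1, 46.6 and 42.8 in heterozygous and 56.6, 91.8, 84.9 and 62.7 in homozygous arrays, so that homozygous array 1 alone fell inside the wild-type range. The homozygous arrays were 0.56 ± 0.17 above wild type and 0.45 ± 0.16 above heterozygous arrays (0.50 and 0.44 after quantile normalization). Sytl2, a Rab27 effector, had the opposite order, with 781 to 1146 in heterozygous and 567 to 731 in homozygous arrays, and these ranges did not overlap. Its homozygous minus heterozygous difference was −0.49 ± 0.15 (−0.41 after quantile normalization). The 2 members whose homozygous values lay wholly below the heterozygous ones were Sytl2 and 1 Dlgap1 probe set. They made 2.74% of the members, close to the 2.39% of the other listed probe sets (array 0.386%). Of the members 0 lay wholly above (other listed 0.184%, array 0.0887%).

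Syt1 and Syt7, the sensors for synchronous and for slower release, were 0.30 ± 0.13 and 0.35 ± 0.12 higher in heterozygous than in wild-type arrays, and Syt16 was 0.38 ± 0.14 higher. These differences were 0.11, 0.18 and 0.19 after quantile normalization. Syt13, a relative that lacks calcium binding, differed widely between arrays of a genotype. It read 489.6, 1041, 1140.3 and 889.9 in wild-type, 1337, 1332, 1179.9, 1023 and 2194 in heterozygous and 1138, 799, 516 and 1729.6 in homozygous arrays. Heterozygous arrays were 0.67 ± 0.26 above wild type, and the homozygous arrays included values near the lowest and beyond the highest wild-type value.

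SNARE genes comprised 8 probe sets of 7 genes with a heterozygous median of 0.32 (0.17 after quantile normalization), and Stx1a stood far from the rest. Stx1a encodes a syntaxin of the presynaptic plasma membrane that pairs with Vamp2 on the vesicle. It read 362, 852, 451 and 607 in wild-type, 1257, 968, 911, 623 and 2018 in heterozygous and 916, 447, 413 and 598 in homozygous arrays. Heterozygous array 5 was the highest, 4 of 5 heterozygous arrays exceeded every wild-type array, and the homozygous range was close to the wild-type range. Heterozygous arrays were 0.97 ± 0.26 above wild type (0.77 after quantile normalization; limma adjusted p = 0.289), and homozygous minus heterozygous gave −0.90 ± 0.26 (−0.82; adjusted p = 0.907).

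Vamp2 was 0.31 ± 0.12 higher in heterozygous than in wild-type arrays, and Snap47, a SNARE of the SNAP-25 family, was 0.33 ± 0.12 higher (0.17 and 0.16 after quantile normalization). Snap91, which by its symbol falls here but encodes the clathrin assembly protein AP180, was 0.35 ± 0.12 higher (0.19 after quantile normalization). Stx2 read 347 to 365 in wild-type and 414 to 503 in heterozygous arrays without overlap, a difference of 0.32 ± 0.11 that was 0.15 after quantile normalization. Stx17, a syntaxin of autophagosomes, was 0.26 ± 0.12 higher at its brighter and 0.30 ± 0.11 at its dimmer probe set.

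Regulators of the SNARE complex were the most mixed class, and held both members that were lower in homozygous than in wild-type arrays at an unadjusted p under 0.05. After quantile normalization Stxbp4 was still under it (limma unadjusted p = 0.0209), and Cplx3 was not (limma unadjusted p = 0.0672). Cplx3, a complexin best known from ribbon synapses of the retina, read 286, 538, 260.1 and 776 in wild-type, 491, 989, 313, 822 and 449 in heterozygous and 315, 116, 238 and 351 in homozygous arrays. Its values varied widely within each group, and homozygous array 2 was the lowest of all. The homozygous minus wild-type difference was −0.79 ± 0.33 (−0.92 after quantile normalization; limma adjusted p = 0.909) and homozygous minus heterozygous gave −1.20 ± 0.31 (−1.15; adjusted p = 0.764). Leaving out 1 array at a time moved the first between −1.01 and −0.48, the weakest without homozygous array 2. Its relative Cplx2, the main complexin of forebrain excitatory terminals, was 0.33 ± 0.14 higher in heterozygous than in wild-type arrays (0.14 after quantile normalization). Stxbp4, a syntaxin-4 binding protein, was dim, at 77.1, 62.3, 37.0 and 49.3 in wild-type and 40.8, 23.8, 52.6 and 30.0 in homozygous arrays, a difference of −0.46 ± 0.17 (−0.51).

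Stxbp6 encodes amisyn, which competes for syntaxin, and had its highest mean in the homozygous arrays. The brighter probe set 1435396_at read 949, 853, 1445 and 669 in wild-type, 1372, 906, 1482, 834 and 1572 in heterozygous and 1139, 1815, 1231 and 2027 in homozygous arrays. Homozygous arrays 2 and 4 were above all others and homozygous arrays 1 and 3 lay within the wild-type range. Its differences from wild type were 0.67 ± 0.22 and, for the dimmer probe set, 0.53 ± 0.18 in homozygous arrays (0.55 and 0.43 after quantile normalization). The tomosyns Stxbp5 (3 probe sets) and Stxbp5l, which restrain SNARE assembly, were 0.37 ± 0.13 and 0.35 ± 0.13 higher in heterozygous than in wild-type arrays, the first at its brightest probe set. After quantile normalization these differences were 0.19 and 0.17.

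Adaptor complex subunits, which select cargo for clathrin-coated and endosomal vesicles, differed little among themselves. Their 6 probe sets of 5 genes were 0.30 to 0.37 higher in heterozygous than in wild-type arrays, all with an unadjusted p under 0.05, and 1 of 6 after quantile normalization, where the median was 0.13. All 6 were listed through that comparison. At that p 83.7% of the other listed probe sets and 10.8% of the array were higher (31.7% and 3.84% after quantile normalization). Ap2a2 and Ap2s1 belong to the endocytic AP-2 complex, Ap1s3 to AP-1, and Ap3b2 and Ap3m2 to the neuronal form of AP-3. Ap2s1 read 2481, 2545, 2750.2 and 2505 in wild-type and 3436, 2854, 3407, 2758 and 3427 in heterozygous arrays, with no overlap. No adaptor probe set had an unadjusted p under 0.05 in the other comparisons.

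Ranges of heterozygous and wild-type arrays stood apart for 13 of 73 members, all higher in heterozygous arrays, where 6.54% of the array and 27.7% of the other listed probe sets did so (0.0621% of the array was wholly lower). Here and above, ranges are of the deposited intensities and hold the shift between arrays. They were not compared after quantile normalization. The 13 members were single probe sets of Ap2a2, Ap2s1, Dlgap1, Stxbp5, Stxbp5l, Stx17, Stx2, Sv2a, Sv2b, Syn1 and Syngr1 and both of Grik1. On the values as deposited, the 14 genes with more than 1 probe set never showed opposite signs between their probe sets in any of the 3 comparisons. After quantile normalization the Stxbp5 probe sets ran from −0.01 to 0.05 for homozygous minus wild type. For homozygous minus heterozygous, those of Grik1 ran from −0.26 to 0.02 and those of Syn2 from −0.08 to 0.05. Probe sets were listed by raw p and fold change in these mice, which favours like signs against wild type.

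**Figure D4:**
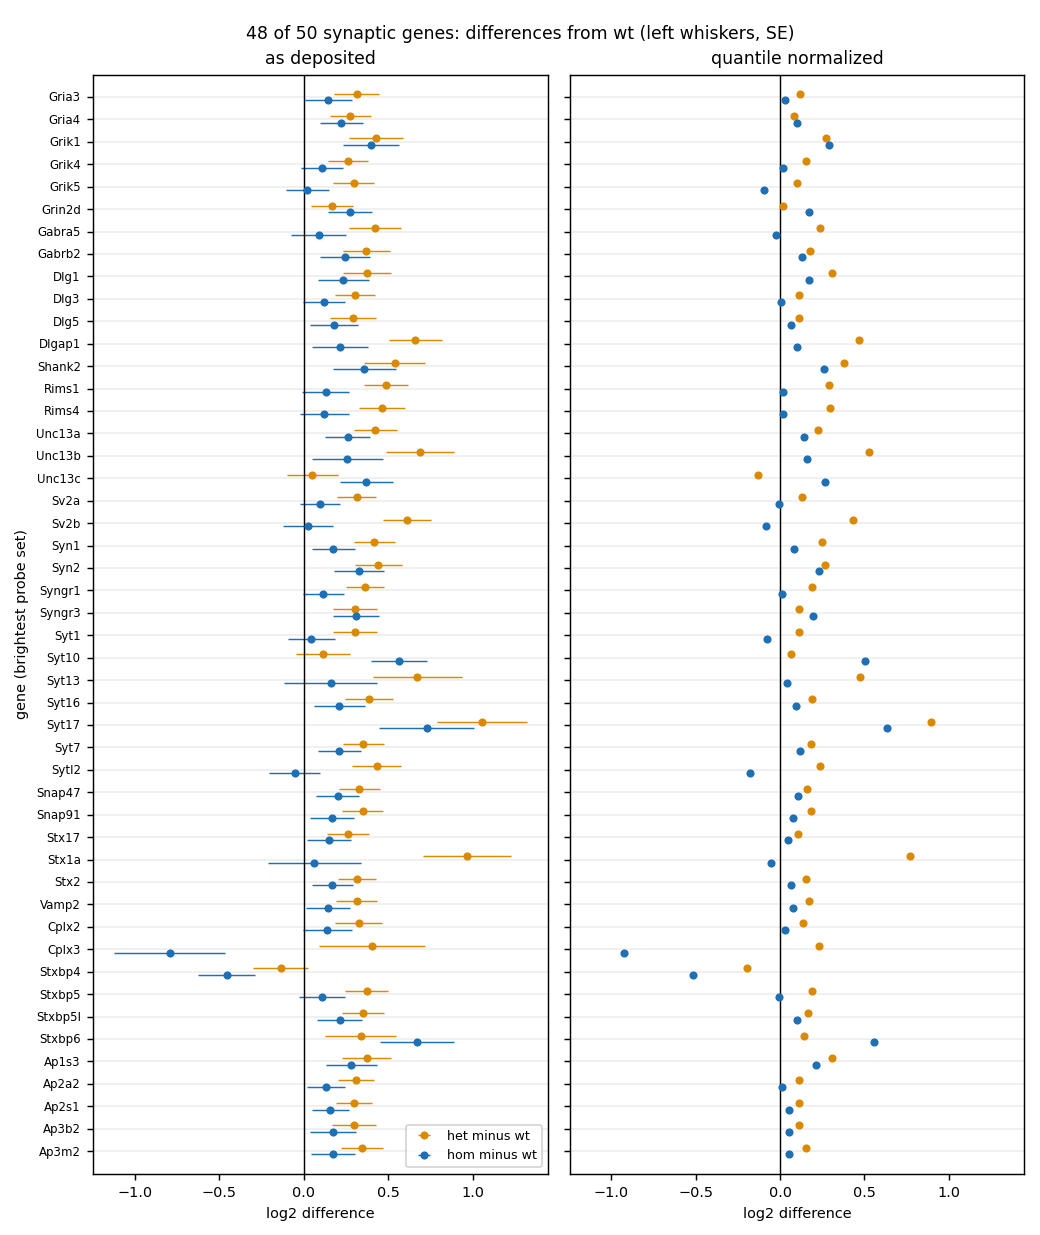
For the brightest probe set of 48 of the 50 genes, the log2 difference from wild type is plotted for heterozygous (orange) and homozygous arrays (blue), on the values as deposited with the SE as whiskers (left) and after quantile normalization (right). As deposited, Syt17 (1.06) and Stx1a (0.97) lie farthest right among the heterozygous points, and Cplx3 (−0.79) and Stxbp4 (−0.46) farthest left among the homozygous points.

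Genes outside the families whose values most resembled the members' mean standardised profile over the 13 arrays were Napb, Lztr1, Ptprs and Actr1b, each with a Pearson r of 0.99 on the values as deposited, and 0.97, 0.90, 0.97 and 0.96 after quantile normalization. A further listed probe set carried a symbol that a spreadsheet had turned into a date. The arrays share their overall brightness, which enters these values.

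Ptpn5 lies on mouse chromosome 7, and so did 11 of the 50 member genes (22%), against 8.26% of the 2747 other listed genes with a known position. They included Ap2a2, Ap2s1, Ap3b2, Gabra5, Grik5, Grin2d, Shank2, Sv2b, Syt17 and Sytl2. Their 14 probe sets had a median homozygous minus wild-type difference of 0.16, against 0.19 for the 59 members on other chromosomes, and heterozygous minus wild-type medians of 0.39 and 0.36. Grin2d and Gabra5 were the nearest by gene order, 29 and 42 protein-coding genes from Ptpn5 on opposite sides.

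The members nearest to the authors' selection limits (raw p under 0.05 and a fold above 1.2) were, in the authors' deposited table, Stx17 (p = 0.045, fold 1.21), Dlg5 and Syngr3 in the heterozygous comparison and Grin2d (p = 0.045, fold 1.22), Unc13c and Syn2 in the homozygous comparison. Probe sets just outside the limits carried no gene name in the sources used here and were not analysed by name.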

How the data were processed

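Linear intensities were deposited for 45101 probe sets on 13 Affymetrix arrays of biotin-labelled RNA; the authors computed them with PLIER, per the submitters' processing notes. For its version, the array type and the build, nothing is stated (not given in the sources used here). No between-array scaling was visible in the deposited intensity values. The authors' deposited table of selected probe sets adds gene symbols, raw p-values and fold changes, and, as tested on the file, every row passed limits of 0.05 for the raw p and 1.2 for the fold in at least 1 comparison with wild type. Arrays were grouped by the labels of each array.

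The log2(intensity + 16) values of all 13 arrays were fitted on genotype in limma 3.58.1 (R 4.3.3; lmFit, eBayes with an intensity trend, two-sided), with Benjamini-Hochberg adjustment over all 45101 probe sets and a threshold of 0.05. The fit was tested on simulated data. Ptpn5 was tested with an exact permutation test. Precision is limited by 4, 5 and 4 arrays. Alternatives were offsets of 1 and 32, quantile normalization, median centring, brighter probe sets, no trend, array weights, a replicate block, only 2 groups, the selected rows alone, an adjusted p under 0.1 and leaving out each array. A combination of quantile normalization with an array left out was chosen after seeing the data.

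Members, role classes and marker lists were chosen with earlier results of these data known. Values in full go to Syn2, Unc13c and, per class, the 2 genes with the smallest p in homozygous against wild type and against heterozygous, each by its brightest probe set; further members were named to account for the set, after their values were seen. For 2 of the 50 genes single values are not reported here, though they enter the counts and medians. Member genes were matched to RefSeq (GRCm38.p6) by Entrez ID, 50 of 50, for chromosome and promoter. Family genes outside the selected table were not analysed here, since its rows alone carry symbols.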

Additional observations from a re-analysis of the deposited data

Results flagged for a closer look

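In 93 groups of values tested for a single array far from the others, 2 arrays stood apart, and chance alone would single out about 1 in 20 such groups. For Gabra5 homozygous array 2 was high, with a gap to the next array of 0.946 of the group's range. For Syngr3 wild-type array 3 was high, with a gap of 0.9 of the range. Homozygous array 2 also had the highest median intensity of all probe sets.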

How the results depend on the processing

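All 48 differences of named genes (each with an unadjusted p under 0.05) kept their sign in all 1098 recomputed values, and 31 of those passed the adjusted threshold (18 with array weights, 8 with the selected rows alone, 4 without heterozygous array 4 and 1, Cplx3, with the replicate block). These differences were picked for a low p in the same arrays, so their signs could hardly change. No trend, brighter probe sets, the selected rows alone and only 2 groups left the differences themselves unchanged by construction. The kept signs therefore say little about how stable the differences are. Counts are of members unless the array is named, at an unadjusted p under 0.05 unless called. Quantile normalization gave 8 higher and 1 lower for homozygous against wild type, and 25 higher for heterozygous against wild type; median centring gave 4 and 1, and 5 higher for homozygous against heterozygous. Brighter probe sets alone gave 1 lower for homozygous against wild type and 2 array calls. Scaling also moved the array's own split: lower ones among those with an unadjusted p under 0.05 were 94 of 1363 for homozygous against wild type, 69 of 4953 for heterozygous against wild type and 924 of 1201 for homozygous against heterozygous as deposited, and 972 of 2071, 1670 of 3402 and 1212 of 2322 after quantile normalization (922 of 1768, 1865 of 4469 and 1531 of 2552 after centring). Same-numbered arrays did not deviate together (correlations −0.45 to 0.19), so the numbers were not taken as pairs. The replicate block gave 17, 6 and 12 array calls for homozygous against wild type, heterozygous against wild type and homozygous against heterozygous, with 1 member called and 10 lower in the last. Heterozygous array 5 alone has the number 5, so by construction the block took it out of every difference. The members' medians with the block equal those without that array (0.33 for heterozygous minus wild type and −0.15 for homozygous minus heterozygous). Only 2 groups gave 18 and 12 array calls in the comparisons of homozygous arrays. The selected rows alone gave 21 members and 673 probe sets called for heterozygous against wild type and 1 member lower for homozygous against wild type; its adjustment covers fewer tests, of rows chosen for low p. Array weights, which ran from 0.209 (homozygous 1) to 12.05 (homozygous 3), gave 11 called, 4 lower and 8390 array calls for homozygous against wild type, 4 array calls for heterozygous against wild type, and 32 called, 5 higher, 40 lower and 5698 array calls for homozygous against heterozygous. An adjusted p under 0.1 gave 2 array calls for heterozygous against wild type. Leaving out 1 array gave 5 to 27 higher, 0 to 2 lower and 3 to 12 array calls for homozygous against wild type; 0 to 10 called and 1 to 213 array calls for heterozygous against wild type; and 1 to 5 higher, 10 to 32 lower and 0 to 7 array calls for homozygous against heterozygous. Quantile normalization without homozygous array 2 gave 8 higher and 0 lower, 25 higher, and 3 lower with 0 array calls, in the same order of comparisons; without heterozygous array 5 it gave 1 lower, 15 higher with a median of 0.15, and 6 higher with 4 lower. Where no construction is named, the cause was not tested. The planned counts over whole families were not run, because probe sets outside the selected table were not analysed by name.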
